A study of Sus scrofa with 19 samples.

Results

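The genes described here are 8 genes that carry or shape the electrical impulse of the heart: the sodium channel beta subunits SCN2B and SCN4B, the pacemaker channels HCN4 and HCN2, and the gap junction connexins GJA1, GJA4, GJA5 and GJC1. They were chosen as a list of symbols. Each symbol was found in the authors' expression table and was followed by its Ensembl identifier into the raw count files, where all 8 are among the 25879 genes counted. The rule itself uses no measured value. Of the 8 genes, 7 passed the filter on low counts and could be tested. SCN4B did not pass, and HCN4 passed only through the 3 libraries of 1 group, so it is described by its levels and a bound.

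In the working myocardium the upstroke of the action potential is carried by voltage-gated sodium channels, whose beta subunits modify gating and surface expression. HCN channels open on hyperpolarization and carry the funny current, which drives the spontaneous depolarization of pacemaker cells. HCN4 is the main form in the sinoatrial node, and HCN2 is also found in working myocytes. Gap junctions built from connexins pass the current from cell to cell. GJA1 is the main connexin of ventricular myocytes, GJA5 that of atrial myocytes and the fast conducting fibres of the ventricle, GJC1 is known from nodal tissue, and GJA4 is chiefly a connexin of arterial endothelium, where GJA5 is found too.

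RNA-seq counts came from myocardium of 19 female large white pigs, with 1 library per pig. The study compared models of myocardial fibrosis. DOX (n = 5) received doxorubicin, an anthracycline that damages heart muscle, at 60 mg/m2 in each of 3 cycles, and MYO (n = 5) received Myocet, its liposomal form, in the same dose and cycles. Both were followed for 3 months after the first injection, which was earlier than planned because of poor health. RemoLV (n = 3) underwent 90 min of balloon occlusion of the mid left anterior descending artery with reperfusion, Hyper (n = 3) received a stent of 9 mm as juveniles, which the methods place in the descending thoracic aorta, where growth turns it into a stenosis, and which the label calls coronary, and Control (n = 3) is described by the labels as sham-operated and by the methods as untreated. These 3 groups were followed for 6 months. The sampled tissue was the anterior left ventricular wall, except in RemoLV, where it was the posterior wall remote from the infarct. The DOX and MYO data were taken by the study from an earlier one, so that for these 10 libraries the drug, the follow-up time and the series of libraries cannot be told apart. P-values measure the spread between these pigs.

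Deposited counts on genes were between 9527710 and 20370209 per library. The same libraries carry different sample names in the 2 kinds of deposited file. Values here are grouped by the label of each count file (file labels). Of the 19 sample columns in the authors' expression table, 8 hold the values of a count file that carries another group's label (table names). The 3 RemoLV files are called Control in the table, the 3 Control files are called RemoLV, and a DOX file and a MYO file have swapped names. Nothing in the files decides between the names, so values are given with both for the 7 tested genes, and for the list genes named further on where their direction turns. A further conflict concerns the labelled tissue. In the 3 libraries labelled RemoLV, MYL2, the ventricular regulatory myosin light chain, was at 18.6, 40.0 and 115 CPM (counts per 1000000 of a library's effective size), against 8975 to 18077 CPM in the other 16. MYL4, its atrial counterpart, was at 6029 to 8130 CPM in these 3 libraries and at 0.550 to 21.9 CPM in the other 16. The libraries labelled RemoLV thus go against their label as left ventricular wall on the defining markers. Every difference of RemoLV below, and with table names every difference from Control, moves together with this split, and its part in the results was not tested.

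Scaled by exon length, GJA1 was the most abundant of the 8 genes in every group, with means of 233 CPM per exonic kilobase in Control, 191 in Hyper, 205 in RemoLV, 207 in DOX and 144 in MYO. GJA4 followed in 4 groups, at 8.33 in Control and 5.89 in DOX. In RemoLV the second place was held by GJA5, at 27.6 CPM per kilobase against 3.92 to 5.21 in the other groups. GJC1 lay at 2.25 to 2.89 and HCN2 at 1.70 to 3.86 CPM per kilobase. The lowest were SCN2B at 0.101 to 0.710, SCN4B at 0.0149 to 0.0469, and HCN4 at 0 in Control and Hyper and 0.239 in RemoLV. Exon lengths came from the RefSeq annotation while the authors counted on Ensembl gene models, so these levels per kilobase are approximate.

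**Figure D1:**
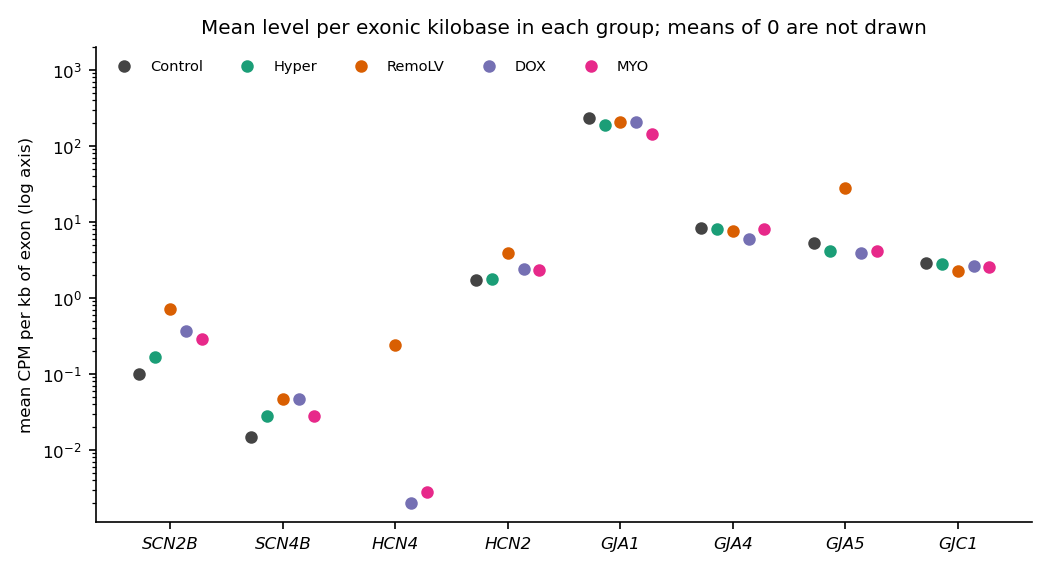
Mean CPM per kilobase of exon (log axis) of the 8 genes in the 5 file-label groups, 1 point per group mean. GJA1 sits far above the others in every group, and GJA5 and HCN4 stand out in RemoLV.

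SCN2B and SCN4B are neighbours on chromosome 9 of Sscrofa11.1. SCN2B (ENSSSCG00000021651) lies at chr9:45484994-45502578 and SCN4B (ENSSSCG00000029199) at chr9:45451473-45475606, both on the minus strand and 9388 bp apart, and neither overlaps another protein-coding gene. Values are given in the order of the library numbers. SCN2B was at 0.149, 1.07 and 0.212 CPM in Control, from 2, 18 and 3 counts. It was at 1.10, 0.602 and 0.670 CPM in Hyper and at 5.14, 2.99 and 1.96 CPM in RemoLV. The RemoLV libraries were above every Control and Hyper library, whereas Hyper overlapped Control through Control library 2. In DOX, SCN2B was at 0.687, 1.61, 2.60, 2.69 and 1.09 CPM and in MYO at 2.06, 0.623, 0.705, 2.86 and 0.677 CPM, and both groups overlapped Control and each other.

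The group means of SCN2B were 0.477 ± 0.514 CPM in Control (SD, n = 3), 1.74 ± 0.892 in DOX (n = 5), 1.38 ± 1.02 in MYO (n = 5), 3.36 ± 1.62 in RemoLV (n = 3) and 0.791 ± 0.269 in Hyper (n = 3). SCN2B was higher in RemoLV than in Control by a log2 fold change of 2.74 (SE 0.72, edgeR quasi-likelihood adjusted p = 0.00435), and this call held without each library in turn, with values of 2.31 to 4.15. Against Hyper the log2 fold change was 2.08 (SE 0.68, edgeR adjusted p = 0.0239), and the call was lost without RemoLV library 1 (1.64, edgeR adjusted p = 0.107), Hyper library 2 (edgeR adjusted p = 0.08) or Hyper library 3 (edgeR adjusted p = 0.0699). SCN2B was also higher in DOX than in Control, with a log2 fold change of 1.79 (SE 0.68, edgeR adjusted p = 0.0403). That call rested on few counts and was lost without DOX library 2, 3 or 4 (edgeR adjusted p = 0.0523, 0.08 and 0.0846) or without Control library 1 or 3 (0.149 and 0.16), and the fold was 3.20 on the log2 scale without Control library 2. In MYO the value was 1.44 (SE 0.68, 95% interval 0.01 to 2.88, edgeR adjusted p = 0.0961), and without Control library 2 it passed at 2.85 (edgeR adjusted p = 0.0133).

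With table names these signs turned. SCN2B was then at a log2 fold change of -2.74 in RemoLV against Control (edgeR adjusted p = 0.00323), -2.08 in Hyper (0.0191), -1.52 in MYO (0.0452) and -0.80 in DOX (0.269). The MYO and Hyper calls were each lost without 1 of several libraries, among them the library that the table calls Control 1.

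SCN4B, a beta subunit linked to resurgent sodium current in neurons and also found in heart muscle, was close to the limit of detection. Its counts were 1, 3, 4, 8 and 1 in DOX, 5, 0, 3, 1 and 0 in MYO, 5, 6 and 0 in RemoLV, 2, 1 and 3 in Hyper, and 2, 0 and 1 in Control, which sum to 46 over all libraries. It exceeded 3 counts in 5 libraries and was at 0 in 4. Differences between groups were not detectable at this depth.

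HCN4 (ENSSSCG00000001920) lies at chr7:60010396-60052258 on the plus strand. HCN2 (ENSSSCG00000033442) lies at chr2:77708159-77730881 on the minus strand and 60 bp from POLRMT. The 250 bases before the annotated start of HCN4 are shown because this gene had counts in 1 group almost alone, and those of GJA5 and GJA1 because GJA5 was high in the same libraries and GJA1 was not. Sequences are from RefSeq on Sscrofa11.1, 5′ to 3′ on the gene's own strand, and capitals mark matches on either strand to 4 searched motifs: GGTGTG for T-box factors, TNAAGTG for NKX2-5, AGATAA for GATA factors and GGGCGG for SP factors. The windows are chr7:60010146-60010395 for HCN4 (plus strand), chr4:99853879-99854128 for GJA5 (plus strand) and chr1:41002130-41002379 for GJA1 (minus strand).
HCN4: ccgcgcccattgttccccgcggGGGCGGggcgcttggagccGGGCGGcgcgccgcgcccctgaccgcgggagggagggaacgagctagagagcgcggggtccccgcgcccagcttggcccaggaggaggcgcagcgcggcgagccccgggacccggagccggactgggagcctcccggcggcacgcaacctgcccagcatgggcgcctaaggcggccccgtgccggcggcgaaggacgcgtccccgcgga
GJA5: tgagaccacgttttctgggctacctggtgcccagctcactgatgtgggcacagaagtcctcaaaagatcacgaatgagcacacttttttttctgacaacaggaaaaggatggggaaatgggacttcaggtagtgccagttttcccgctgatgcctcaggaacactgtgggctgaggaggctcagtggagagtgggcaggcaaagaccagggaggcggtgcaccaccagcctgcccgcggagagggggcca
GJA1: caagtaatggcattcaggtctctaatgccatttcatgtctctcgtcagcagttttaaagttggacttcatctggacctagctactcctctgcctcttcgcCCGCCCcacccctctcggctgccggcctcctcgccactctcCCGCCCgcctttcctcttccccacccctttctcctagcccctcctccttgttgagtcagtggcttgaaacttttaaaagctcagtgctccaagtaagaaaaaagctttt
The HCN4 and GJA1 windows each held 2 SP matches and no other motif, and the GJA5 window held none of the 4. Of 19531 such windows, 13.8% held the T-box letters, 8.09% the NKX2-5 letters, 8.08% the GATA letters and 45.9% the SP letters. The GC content was 80.0% before HCN4, 56.8% before GJA5 and 52.8% before GJA1, against a median of 57.6%. A match or its absence in a window of 250 bases describes letters only.

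HCN4 had 35, 20 and 10 counts in the 3 RemoLV libraries, or 2.46, 1.13 and 0.891 CPM. It had 1 count in DOX library 1, 1 in MYO library 4 and 0 in the other 14. No other group reached the lowest RemoLV library. The RemoLV mean was 1.49 ± 0.847 CPM (SD, n = 3), at least 6.67-fold higher than Control and at least 6.62-fold higher than Hyper when the groups at 0 are set to a floor of 3 counts per library. Against the summed counts of DOX the ratio was 107 (95% interval of counting error 18.5 to 4290) and against those of MYO 97.3 (16.9 to 3900). No test is given for HCN4, because it passed the filter through these 3 libraries alone. These bounds and intervals cover counting error only. With table names the 3 libraries with these counts are those called Control.

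HCN2 was measured well in every library. Its level was 5.37, 5.94 and 5.78 CPM in Control and 4.88, 5.87 and 7.24 CPM in Hyper. It was 13.51, 12.35 and 13.01 CPM in RemoLV, above all 16 other libraries. In DOX it was 9.11, 9.33, 7.60, 8.19 and 6.05 CPM, every library above the highest of Control, and in MYO 8.71, 8.17, 7.69, 5.37 and 9.22 CPM, where library 4 was just below the lowest Control library and the other 4 above the highest. The means were 5.70 ± 0.291 CPM in Control (SD, n = 3), 6.00 ± 1.19 in Hyper (n = 3), 12.96 ± 0.582 in RemoLV (n = 3), 8.06 ± 1.32 in DOX (n = 5) and 7.83 ± 1.49 in MYO (n = 5).

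HCN2 was 2.27-fold as high in RemoLV as in Control by the ratio of means, with a log2 fold change of 1.18 (SE 0.20, edgeR adjusted p = 0.000125) that stayed between 1.14 and 1.21 and past the threshold without each library. Against Hyper the log2 fold change was 1.11 (SE 0.20, edgeR adjusted p = 0.000314). The anthracycline groups showed smaller differences from Control: 0.50 in DOX (SE 0.18, 95% interval 0.12 to 0.88, edgeR adjusted p = 0.0344) and 0.46 in MYO (SE 0.18, 95% interval 0.08 to 0.84, edgeR adjusted p = 0.0499). Both calls were marginal. In DOX the call was lost without DOX library 1, 2 or 4 (0.0734, 0.0733 and 0.0549) or without any 1 of the Control libraries (edgeR adjusted p of 0.103, 0.0503 and 0.084), at log2 fold changes of 0.44 to 0.58. In MYO it was lost without MYO library 1, 2, 3 or 5 (0.0917, 0.0808, 0.0681 and 0.106) or without any 1 of the Control libraries (edgeR adjusted p of 0.136, 0.0683 and 0.111), at 0.39 to 0.57. DOX and MYO together were 0.41 above Hyper (SE 0.17, edgeR adjusted p = 0.0671), which passed without DOX library 5 (0.45, edgeR adjusted p = 0.0363), without MYO library 4 (0.46, 0.0251) or without Hyper library 3 (0.57, 0.0317). With table names HCN2 was lower than Control in every model, by log2 fold changes of -0.59 for DOX, -0.82 for MYO, -1.18 for RemoLV and -1.11 for Hyper (edgeR adjusted p of 0.00986, 0.000931, 6.88e-05 and 0.000167).

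**Figure D2:**
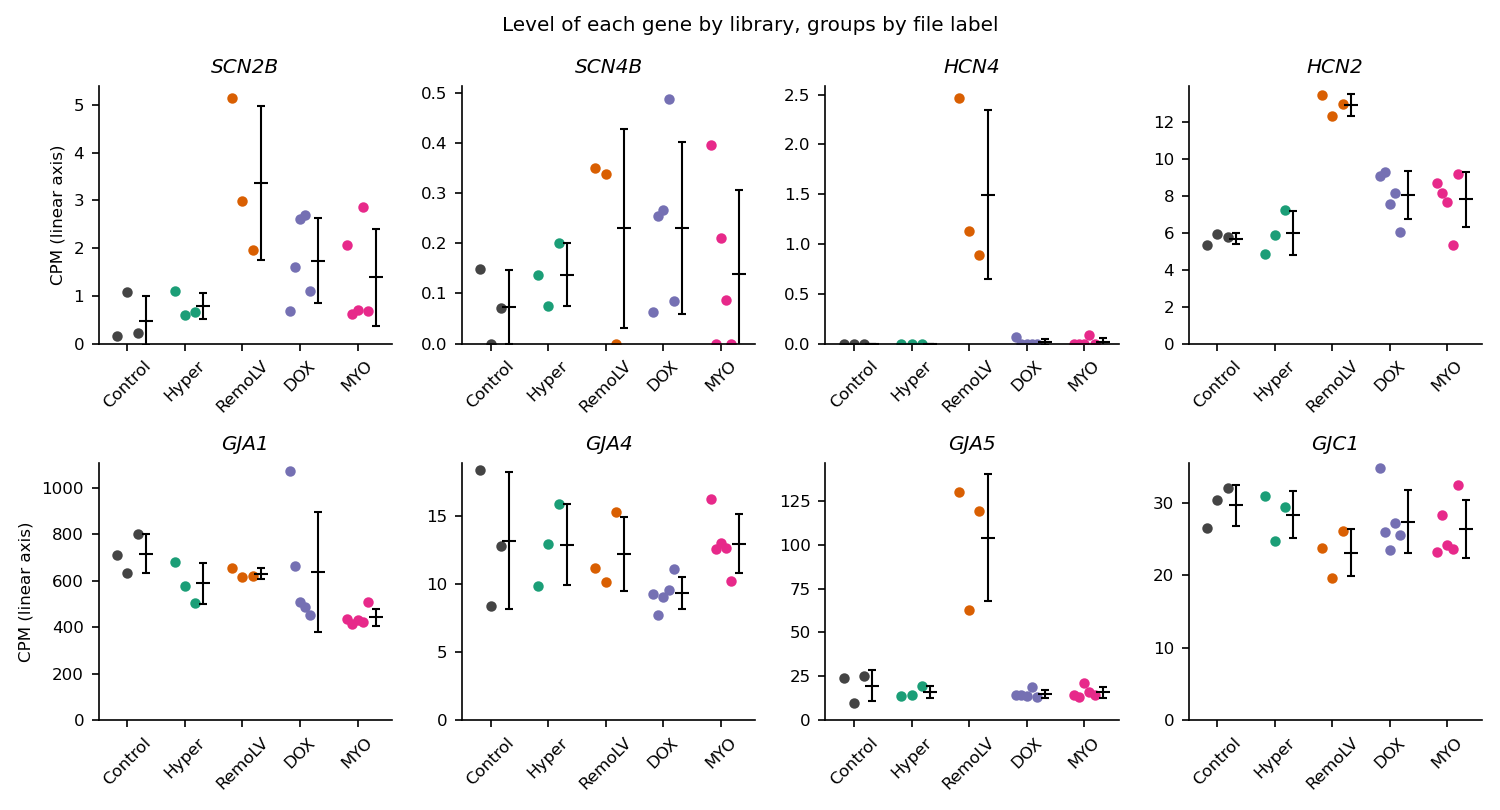
CPM (linear axes) of the 8 genes in each of the 19 libraries, grouped by file label, with the mean and SD of each group beside its points (bars cut at 0). The 3 RemoLV libraries lie above all others for HCN4, HCN2 and GJA5, and the MYO libraries lie below Control for GJA1.

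Of the connexins, GJA1 (ENSSSCG00000004241, chr1:40988818-41002129, minus strand) encodes the channel protein of the ventricular intercalated disc. Its level was 713, 634 and 803 CPM in Control, 682, 578 and 505 CPM in Hyper and 657, 617 and 621 CPM in RemoLV. In MYO it was 437, 416, 433, 421 and 508 CPM, all 5 below the lowest Control library. In DOX it was 1075, 664, 508, 488 and 452 CPM, so that library 1 lay above every Control library and 3 of the others below all of them. The mean was 443 ± 37.5 CPM in MYO (SD, n = 5), 637 ± 258 in DOX (n = 5), 631 ± 22.1 in RemoLV (n = 3), 589 ± 88.7 in Hyper (n = 3) and 717 ± 84.5 in Control (n = 3).

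GJA1 was lower in MYO than in Control, 0.618 of its mean, with a log2 fold change of -0.69 (SE 0.21, 95% interval -1.13 to -0.26, edgeR adjusted p = 0.0118). Without Control library 3 the value was -0.60 and the call was lost (edgeR adjusted p = 0.0649). In DOX the log2 fold change was -0.17 (SE 0.21, 95% interval -0.61 to 0.27, edgeR adjusted p = 0.538), and without DOX library 1 it was -0.46 and passed (edgeR adjusted p = 0.0111). The direct comparison of the free with the liposomal drug gave 0.52 (SE 0.18, 95% interval 0.14 to 0.91) with an unadjusted p of 0.00971 and an edgeR adjusted p of 0.692, so a difference between the formulations was not called. In Hyper the value was -0.28 (SE 0.23, 95% interval -0.77 to 0.21, edgeR adjusted p = 0.53). GJA1 was not called in 6 of the 7 comparisons, with log2 fold changes of -0.28 to 0.52. Scaling by library totals instead of TMM moved the median of all tested genes to 0.45 in DOX and 0.44 in MYO, where GJA1 was then at 0.26 and -0.25 and the MYO call was lost (edgeR adjusted p = 0.309). With table names GJA1 was at -0.50 in MYO (edgeR adjusted p = 0.0802), 0.01 in DOX, 0.18 in RemoLV and -0.10 in Hyper, none called.

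GJA5 (ENSSSCG00000006696) lies at chr4:99854129-99871288 on the plus strand, with its coding sequence in 1 exon like that of the other 3 connexins. Its level was 130.4, 62.7 and 119 CPM in RemoLV. In Control it was 24.2, 9.50 and 25.2 CPM and in Hyper 13.5, 14.1 and 19.6 CPM. In DOX it was 14.4, 14.1, 13.6, 18.9 and 12.9 CPM and in MYO 14.4, 13.2, 21.0, 16.2 and 14.4 CPM. The lowest RemoLV library was above the highest of the other 16, and the remaining 4 groups overlapped one another. The means were 104 ± 36.3 CPM in RemoLV (SD, n = 3), 19.6 ± 8.80 in Control (n = 3), 15.8 ± 3.38 in Hyper (n = 3), 14.8 ± 2.39 in DOX (n = 5) and 15.8 ± 3.08 in MYO (n = 5).

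The RemoLV mean of GJA5 was 5.30-fold that of Control, with a log2 fold change of 2.41 (SE 0.31, 95% interval 1.75 to 3.07, edgeR adjusted p = 1.08e-05), and 6.61-fold that of Hyper, with a log2 fold change of 2.72 (SE 0.32, edgeR adjusted p = 4.4e-06). Without each library in turn the values were 2.07 to 2.67 and 2.52 to 2.98, all past the threshold. In DOX the log2 fold change against Control was -0.40 (SE 0.27, 95% interval -0.98 to 0.17, edgeR adjusted p = 0.246). That value depended on Control library 2, the lowest of its group, without which it was -0.74 and passed (edgeR adjusted p = 0.0167), and it was 0.10 with library totals. With table names GJA5 was lower than Control in all 4 models, at -2.78 for DOX, -2.74 for MYO, -2.41 for RemoLV and -2.72 for Hyper (edgeR adjusted p of 4.45e-07, 5.6e-07, 1.12e-05 and 4.45e-06).

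**Figure D3:**
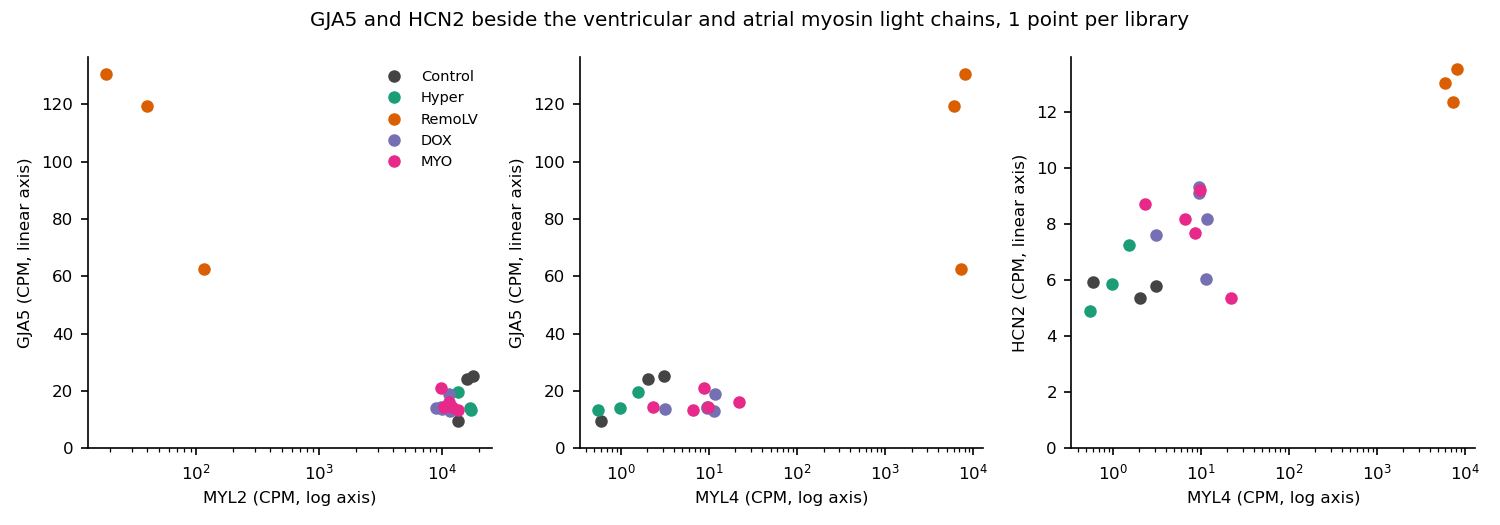
GJA5 (left and middle) and HCN2 (right) in CPM on linear axes against MYL2 (left) and MYL4 (middle and right) in CPM on log axes, 1 point per library coloured by file label. The 3 libraries labelled RemoLV hold the highest GJA5 and HCN2, the lowest MYL2 and the highest MYL4.

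Marker lists of other cells that could carry GJA5 and HCN4 were summed per library. Atrial cardiomyocyte markers, 10 of 12 found, summed to 11834 to 16469.7 CPM in RemoLV and to 921 to 3102 CPM in the other groups. Among these, DOX at 1991 to 3102 CPM and MYO at 1585 to 2047 CPM lay above Control at 921 to 1349 CPM. Hyper, at 1177 to 2026 CPM, overlapped all 3. BMP10, a growth factor of the atrial wall, did not move with the sum, with at most 0.169 CPM in RemoLV and 0 in DOX, Hyper and Control. Ventricular cardiomyocyte markers, 8 of 9 found, summed to 25023.5 to 29135 CPM in RemoLV and to 45100.3 to 74604 CPM elsewhere. In RemoLV, MYL2 made up at most 115 CPM of this sum, HEY2 at most 4.99 CPM and IRX3 at most 1.07 CPM. IRX4 and IRX5 had at most 3 counts per library there, so nearly all of that sum came from MYL3, MYH7 and HAND1. Arterial endothelial markers, 6 of 6 found, did not set RemoLV apart, at 98.6 to 108 CPM against 84.3 to 142 CPM in the other groups. The general endothelial list, 11 of 12 found, was lower there, at 849 to 926 CPM against 989.9 to 1379 CPM, and so was the list for cardiomyocytes of all chambers, 9 of 12 found, at 26899 to 28777 CPM against 33779 CPM or more. Conduction system markers other than the 8 genes, 12 of 12 found, summed to 244 to 278 CPM in RemoLV, below the 433 to 633 CPM of Control and the 564 to 714 CPM of Hyper and the 324 to 418 CPM of MYO, and overlapping the 236 to 359 CPM of DOX. That sum was led by PCP4, at 3.92 to 13.1 CPM in RemoLV against 140.0 CPM or more elsewhere. Several of the 12 went the other way: the sinus node factor SHOX2 was at 31.7 to 70.8 CPM in RemoLV against no more than 2.55 CPM elsewhere, ETV1 at 93.9 to 105 against no more than 40.8 CPM, CPNE5 at 30.7 to 47.7 against no more than 5.30 CPM and VSNL1 at 8.59 to 14.3 against no more than 2.28 CPM. ISL1 was near 0 throughout, at 0.226 to 0.493 CPM in RemoLV and no more than 0.141 CPM elsewhere. Fibroblast markers summed to 10990.2 to 12661 CPM in RemoLV, 4806 to 7384 CPM in DOX and MYO together and 1693 to 4102 CPM in Hyper and Control together. Neuron and Schwann cell markers summed to 19.3 to 58.3 CPM in RemoLV and 7.83 to 19.2 CPM elsewhere. In bulk tissue, fewer cells of a type and less RNA per cell cannot be told apart, and the part of these cells in the differences was not tested.

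GJA4 (ENSSSCG00000039983, chr6:91045430-91048161, plus strand) and GJC1 (ENSSSCG00000021306, chr12:18526060-18560221, plus strand) passed the threshold in none of the 7 comparisons. GJA4 was at 18.4, 8.37 and 12.8 CPM in Control and at 9.30, 7.72, 9.07, 9.59 and 11.1 CPM in DOX. In MYO it was at 16.3, 12.6, 13.05, 12.6 and 10.2 CPM, so that 4 DOX libraries were below every MYO library and DOX library 5 was above MYO library 5. The log2 fold change of DOX against Control was -0.49 (SE 0.22, 95% interval -0.95 to -0.03, edgeR adjusted p = 0.0778), and without Control library 2, the lowest of its group, it was -0.74 and passed (edgeR adjusted p = 0.00795). DOX against MYO gave -0.47 (SE 0.19, 95% interval -0.88 to -0.07) with an unadjusted p of 0.0251 and an edgeR adjusted p of 0.695. Over the 7 comparisons the log2 fold changes of GJA4 were -0.49 to -0.02. With table names they were -0.23 for DOX, -0.03 for MYO, 0.11 for RemoLV and 0.08 for Hyper against Control, none called. RemoLV (11.2, 10.2 and 15.3 CPM) and Hyper (9.89, 12.9 and 15.9 CPM) overlapped Control.

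GJC1 varied least among the connexins. Its means were 29.6 ± 2.81 CPM in Control (SD, n = 3), 28.3 ± 3.20 in Hyper (n = 3), 23.1 ± 3.27 in RemoLV (n = 3), 27.3 ± 4.36 in DOX (n = 5) and 26.3 ± 3.96 in MYO (n = 5). The RemoLV libraries, at 23.7, 19.6 and 26.0 CPM, were below the Control libraries, at 26.5, 30.4 and 31.9 CPM. The log2 fold change was -0.36 (SE 0.16, 95% interval -0.70 to -0.02, edgeR adjusted p = 0.0739), it was -0.46 to -0.26 without each library, and it was 0.15 with library totals, where the median of all genes stood at 0.52. DOX library 1, which was highest of all for GJA1, was also highest for GJC1, at 34.8 CPM against 23.4 to 27.1 CPM in the other 4 DOX libraries. Over all comparisons the log2 fold changes of GJC1 were -0.36 to 0.05. With table names they were 0.22 for DOX, 0.22 for MYO, 0.36 for RemoLV and 0.30 for Hyper against Control, none called.

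Counted by comparison, RemoLV against Control had 4 of the 7 tested genes higher (SCN2B, HCN4, HCN2 and GJA5) and 0 lower, where 23.1% of the 13552 genes tested were higher and 24.0% lower, 47.2% in all. HCN4 could pass the filter only where it was high, so its place in this count and in the following ones is fixed by its counts in RemoLV, and the other 3 calls are those of 6 genes. The same 4 genes, HCN4 again among them by the filter, were higher in RemoLV than in Hyper, where 17.0% of all genes were higher and 35.6% called in either direction. In DOX, 2 genes were higher (SCN2B and HCN2) and 0 lower, against backgrounds of 21.0% and 21.1%. In MYO, HCN2 was higher and GJA1 lower, where 20.7% of all genes were higher and 21.7% lower. HCN4 had at most 1 count in these libraries, so both counts are of 6 genes, beside 42.1% and 42.4% of all genes called in either direction. These comparisons share the Control libraries. Hyper against Control had 0 of the 7 called, with 0 at an unadjusted p under 0.05, and edgeR called 0.0% of all genes there while 2418 had an unadjusted p under 0.05 and DESeq2 called 105 higher and 207 lower. Without Control library 2, edgeR called 1285 genes higher and 1253 lower in Hyper, and still 0 of the 7. DOX against MYO also had 0 called among the 7 and 0.0% of all genes, with 960 at an unadjusted p under 0.05 and 2 calls by DESeq2. DOX and MYO against Hyper had 0 of the 7 called, where 15.8% of all genes were higher and 16.9% lower, 32.6% in all.

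**Figure D4:**
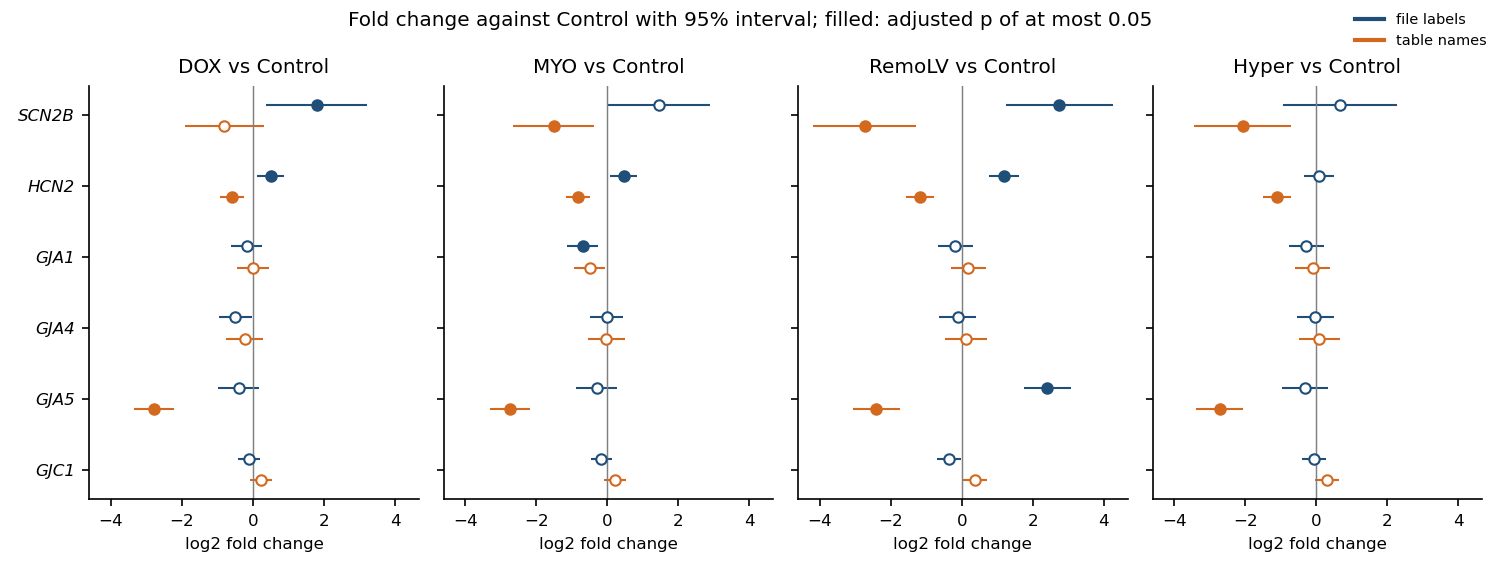
Log2 fold change against Control with its 95% interval for the 6 tested genes other than HCN4, by file labels (blue) and table names (orange), and filled points have an edgeR adjusted p of at most 0.05. In RemoLV the blue and orange points mirror each other, and GJA5 is far below 0 in every model with table names.

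Grouped by table names, the calls against Control, with HCN4 set by the filter in each, were HCN2, HCN4 and GJA5 lower in DOX, the same 3 and SCN2B lower in MYO, and these 4 lower in RemoLV and in Hyper, where 14.6%, 14.4%, 23.2% and 17.2% of all genes were lower and 29.6%, 29.2%, 47.2% and 35.8% were called in either direction. RemoLV against Hyper then had 0 called among the 7 and 0.0% of all genes. HCN2 in DOX and MYO against Hyper, a comparison that leaves out the exchanged Control and RemoLV libraries, was at 0.40 (edgeR adjusted p = 0.0548) beside the 0.41 of the file labels, with 32.7% of all genes called. DOX against MYO for GJA1 was likewise at 0.51 (edgeR adjusted p = 0.542).

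**Figure D5:**
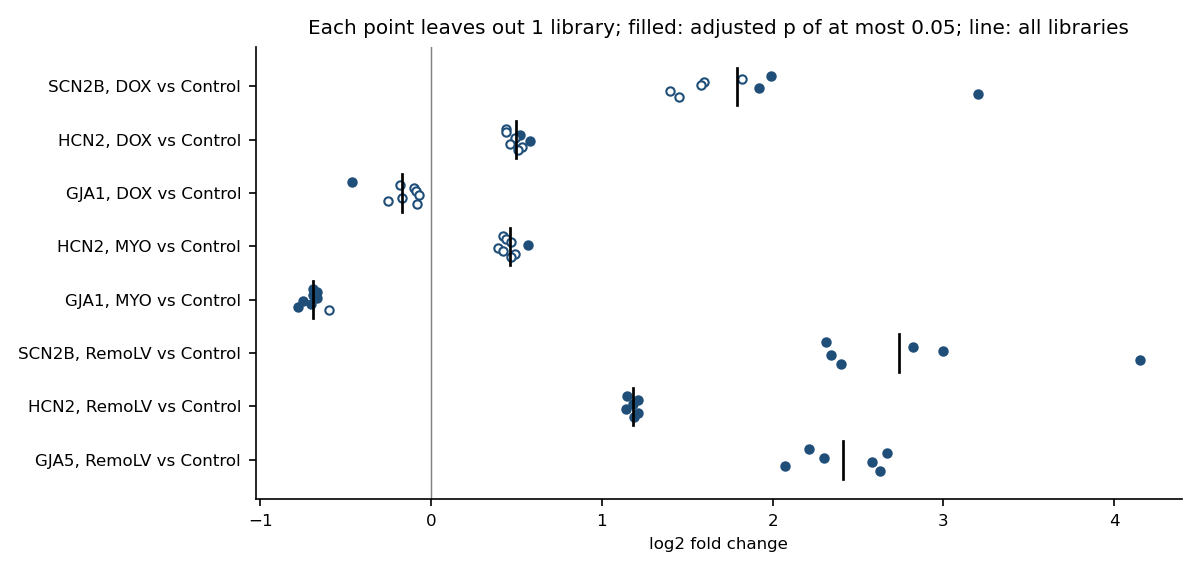
Log2 fold change of 8 comparisons after leaving out each library in turn, 1 point per library left out, with the value from all libraries as a line and filled points at an edgeR adjusted p of at most 0.05. SCN2B, HCN2 and GJA5 in RemoLV stay filled throughout, whereas SCN2B in DOX and HCN2 in DOX and MYO do not.

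Of the other sodium channel subunits and regulators, 21 of 22 were found and 15 tested. Against Control, 1 gene of the list was higher and 3 lower in DOX, 0 and 4 in MYO, 3 and 6 in RemoLV and 0 and 0 in Hyper. Of all genes tested, 42.1%, 42.4%, 47.2% and 0.0% were called in these 4 comparisons. ANK3, the ankyrin that anchors sodium channels, was lower in 3 models: Control stood at 735 ± 231 CPM, DOX at 293 ± 41.9 (log2 fold change -1.33, edgeR adjusted p = 9.23e-06), MYO at 253 ± 13.04 (-1.54, 2.1e-06) and RemoLV at 159 ± 16.1 (-2.21, 1.65e-07). GPD1L, a modulator of sodium channel trafficking, was lower in the same 3, by -0.74 in DOX, -0.63 in MYO and -1.95 in RemoLV (edgeR adjusted p of 0.0013, 0.00425 and 4.33e-07). FGF13, a fibroblast growth factor homologue that binds the channel's tail, was lower in RemoLV at 5.51 ± 0.217 CPM against 24.96 ± 3.65 in Control (-2.18, edgeR adjusted p = 1.42e-06). The 3 higher in RemoLV included SCN4A, the skeletal muscle sodium channel, at 2.62 ± 0.830 CPM against 0.343 ± 0.336 in Control (2.90, SE 0.60, edgeR adjusted p = 0.000722), and NEDD4L, a ubiquitin ligase that removes sodium channels from the membrane (0.60, edgeR adjusted p = 0.0047). NEDD4L was also the gene that was higher in DOX (0.40, edgeR adjusted p = 0.0324). With table names ANK3 was higher than Control, at 0.85 for DOX, 0.70 for MYO and 2.21 for RemoLV, and so was GPD1L, at 1.27, 1.27 and 1.95, all called. FGF13 was then at 2.14, 2.55 and 2.18 and called as well. SCN4A was called as lower, at -2.10, -2.44 and -2.90, and NEDD4L was at -0.30, -0.21 and -0.60, called only in RemoLV. In that naming the list had 6 higher and 3 lower in DOX, 5 and 3 in MYO, 6 and 3 in RemoLV and 5 and 4 in Hyper. Beside these, 29.6%, 29.2%, 47.2% and 35.8% of all genes were called, in the same order.

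Among 8 tested partners of HCN4 and HCN2 in pacemaking, out of 9 listed, 2 were higher and 0 lower in DOX, 3 and 1 in MYO, 6 and 1 in RemoLV and 0 and 0 in Hyper, beside 42.1%, 42.4%, 47.2% and 0.0% of all genes called in either direction. HCN3, a further pacemaker channel, was at 1.02 ± 0.301 CPM in Control, 2.35 ± 0.729 in DOX (log2 fold change 1.19, SE 0.28, edgeR adjusted p = 0.0029) and 2.22 ± 0.357 in MYO (1.11, SE 0.28, edgeR adjusted p = 0.00476). CACNA1G, a T-type calcium channel, was higher than Control in DOX (1.43, edgeR adjusted p = 0.0374) and MYO (1.92, edgeR adjusted p = 0.00805). Its relative CACNA1H was at 70.3 ± 20.9 CPM in RemoLV against 8.98 ± 3.58 in Control (2.96, SE 0.46, edgeR adjusted p = 5.79e-05). CACNA1D, the L-type channel of the sinus node, was at 1.52 to 4.55 CPM in RemoLV and 0 to 0.299 CPM in Control. It is 1 of 2 genes of the list that passed the filter on low counts only through the RemoLV libraries, so their part in the counts, 2 of the 6 higher in RemoLV, was fixed by the filter. With table names HCN3 was at -0.47 in DOX and -0.63 in MYO and CACNA1G at 0.30 and 0.40, none of them called, and in RemoLV CACNA1H was called at -2.96. In that naming 1 gene of the list was higher and 6 lower in RemoLV, the 2 set by the filter included. In the same naming 1 gene was higher and 5 lower in DOX, 0 and 5 in MYO and 0 and 5 in Hyper.

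Other connexins and pannexins gave few values: 17 of 20 were found and 3 were tested, PANX1 and GJD4 among them, with 0 called against Control in any model by file labels. PANX1, which forms large membrane channels, was at 1.96 ± 0.561 CPM in RemoLV and 0.726 ± 0.0343 in Hyper (log2 fold change 1.42, edgeR adjusted p = 0.0354), where 35.6% of all genes were called. With table names PANX1 was lower in Hyper than in Control, since the same libraries are then compared.

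Genes of the intercalated disc and binding partners of GJA1 were tested for 17 of 17. Against Control, 2 were higher and 4 lower in DOX, 1 and 6 in MYO, 1 and 11 in RemoLV and 0 and 0 in Hyper, and the median log2 fold change was -0.19, -0.24, -0.52 and -0.22. The shares called of all genes were again 42.1%, 42.4%, 47.2% and 0.0%. CTNNA3, the alpha-catenin of heart muscle, was at 26.6 ± 8.30 CPM in Control, 8.21 ± 1.55 in DOX (log2 fold change -1.69, edgeR adjusted p = 8.38e-06), 6.91 ± 0.877 in MYO (-1.94, 2.3e-06) and 10.5 ± 1.57 in RemoLV (-1.34, 0.000173). DSC2, a desmosomal cadherin, was lower by -0.61 in DOX, -0.76 in MYO and -0.52 in RemoLV. CDH2, the cadherin that joins myocytes, was lower by -0.42, -0.50 and -0.97. JUP, the plakoglobin of desmosomes, was higher in all 3, at 45.7 ± 13.1 CPM in Control against 94.3 ± 8.54 in DOX (1.04, edgeR adjusted p = 0.000193), 99.3 ± 16.6 in MYO (1.12, 0.000107) and 123 ± 6.70 in RemoLV (1.43, 1.53e-05). TJP1, the scaffold that binds the tail of GJA1, was lower in MYO (-0.49, edgeR adjusted p = 0.00064) and RemoLV (-0.39, edgeR adjusted p = 0.00586) and at -0.23 in DOX (edgeR adjusted p = 0.064). With table names CTNNA3 was at -0.38 for DOX, -0.56 for MYO and 1.34 for RemoLV, and JUP at -0.40, -0.29 and -1.43, with only the RemoLV values called. DSC2 was at -0.14, -0.20 and 0.52 and TJP1 at 0.14, -0.05 and 0.39, again called only in RemoLV, whereas CDH2 was called as higher in all 3, at 0.45, 0.55 and 0.97. The counts in that naming were 8 higher and 1 lower in DOX and in MYO, 11 and 1 in RemoLV and 6 and 1 in Hyper.

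Transcription factors known from the conduction system or from control of connexin genes were tested for 21 of 22. Against Control, 6 were higher and 2 lower in DOX, 6 and 4 in MYO, 9 and 4 in RemoLV and 0 and 0 in Hyper, where 42.1%, 42.4%, 47.2% and 0.0% of all genes were called. Of the 9, 2 passed the filter only through RemoLV. NKX2-5, a cardiac homeobox factor, was at 37.5 ± 2.72 CPM in Control, 79.5 ± 7.06 in DOX (log2 fold change 1.08, edgeR adjusted p = 4.52e-05), 76.5 ± 11.0 in MYO (1.03, 7.17e-05) and 67.6 ± 0.574 in RemoLV (0.85, 0.000496). TBX2, a T-box repressor, was higher in DOX at 20.7 ± 3.59 CPM and MYO at 26.8 ± 2.64 CPM than in Control at 9.37 ± 1.91 CPM (1.14 and 1.51, edgeR adjusted p of 0.000232 and 2.17e-05). TBX3, a T-box repressor of the nodes, was lower in DOX (-1.10, edgeR adjusted p = 0.0135) and MYO (-1.38, edgeR adjusted p = 0.00323). Its Control libraries were split, at 40.1, 10.3 and 42.2 CPM, and the second lay below all DOX libraries, which were at 10.6 to 18.9 CPM. In RemoLV the ventricular factors IRX3 (-5.67, edgeR adjusted p = 1.98e-08) and HEY2 (-4.68, edgeR adjusted p = 1.08e-07) were lower and SHOX2 was higher (4.86, edgeR adjusted p = 7.8e-07). NKX2-5 and TBX2 were also higher in DOX and MYO than in Hyper, by 0.76 and 0.62 (edgeR adjusted p of 0.000539 and 0.0115), in libraries that the 2 namings exchange only within the drug groups. With table names none of NKX2-5 (0.17 and 0.24), TBX2 (-0.15 and 0.09) and TBX3 (-0.47 and -0.44) was called in DOX or MYO, and in RemoLV NKX2-5 was at -0.85, IRX3 at 5.67, HEY2 at 4.68 and SHOX2 at -4.86, all called. In that naming 6 factors were higher and 7 lower than Control in DOX, 4 and 8 in MYO, 4 and 9 in RemoLV and 4 and 10 in Hyper. Beside these, 29.6%, 29.2%, 47.2% and 35.8% of all genes were called, in the same order.

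Across the 19 libraries, likeness to each of the 8 genes was measured by Pearson correlation of log2 CPM over 9788 genes with a mean log2 CPM of at least 2. These values describe the libraries, which share groups, so a second value is given with group means removed. Nearest to HCN4 were PTPRD (0.947, and 0.341 with group means removed), SLC4A7 (0.944 and 0.309) and MYL4 (0.942 and 0.332). Nearest to GJA5 were PAM (0.938 and 0.484), ELAPOR2 (0.931 and 0.366) and NR2F2 (0.926 and 0.298), of which PAM and NR2F2 are on the atrial marker list. MYL4 is on that list too. GJA1 was most like KLHL15 (0.874 and 0.854), MED14 (0.863 and 0.825) and MYLK3 (0.854 and 0.730). GJA4 was most like PRDX5 (0.854 and 0.827), a mitochondrial peroxiredoxin, HCN2 was most like CAMK1 (0.915 and 0.766), SCN2B was most like SLITRK6 (0.884 and 0.752), GJC1 was most like NUP50 (0.828 and 0.796), and SCN4B was most like QDPR (0.695 and 0.710) on its few counts. By Spearman correlation instead, the 3 nearest genes kept 2 of 3 for SCN4B and GJA4, 1 of 3 for HCN2, GJA1 and GJC1, and 0 of 3 for SCN2B, HCN4 and GJA5. Among the 8 genes themselves, HCN4 and GJA5 had a correlation of 0.92 over 19 libraries, and with at most 1 count of HCN4 outside RemoLV it rests on those 3. HCN2 and GJA5 had 0.69 over 19 libraries and -0.12 over the 16 not labelled RemoLV, whereas GJA1 and GJC1 went from 0.45 to 0.66 and GJA4 and GJA5 from 0.27 to 0.59.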

How the data were processed

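The authors aligned the reads to Sscrofa11.1 with STAR, counted them by strand (reverse setting) per Ensembl gene with HTSeq 0.11.1 and deposited whole-number counts without normalization, 1 file per library, with totals of 9527710 to 20370209. A second file deposited by the authors covers 14744 genes, with log2-like transformed values per sample, used here only to match names, and with fold changes and adjusted p-values of their own DESeq2 comparisons, which were not used.

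Groups came from the file labels. In R 4.3.3, counts were scaled with TMM in edgeR 4.0.16 and filtered with filterByExpr (minimum count 10), and 13552 genes were tested by quasi-likelihood in 1 model of the 5 groups, with Benjamini-Hochberg adjustment over all of them. A call is an adjusted p of at most 0.05, intervals are 95%, and CPM uses the effective library size. HCN4 was bounded with a floor of 3 counts per library. Alternatives were the table names, DESeq2 1.42.0 and its size factors, other filters, a replicate block, only the groups compared, library totals (added after the data were seen) and leaving out each library. The steps were tested on simulated counts with 200 changed genes, using only the groups compared. For RemoLV against Control, 42% of true log2 changes of 1 and 94% of those of 2 were recovered, with 4 false calls. For DOX against Control these were 65% and 96%, with 17 false calls. Tables were made in Python 3.11.15 (pandas 2.3.3, numpy 2.4.6).

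The 8 genes and all lists were chosen with earlier results of these data known. Every member is named, and from each list up to 4 called genes per comparison with the largest absolute log2 fold change. CDH2, TJP1 and values of the named genes in further comparisons were added after their values were seen. Promoter windows and gene positions are from RefSeq on Sscrofa11.1. Values of some list genes are not reported here.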

Additional observations from a re-analysis of the deposited data

Results flagged for a closer look

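Libraries that stood apart within DOX or MYO were sought by the gap to the nearest library over the group's range, in 16 sets of 5 values, and 4 were found; chance alone marks about 1 in 20. For HCN4, the first DOX library was at 0.0624 CPM and the fourth MYO library at 0.0866 CPM with all others of their groups at 0, and each value is 1 count. With 1 count among values of 0 the gap equals the range by construction, so the rate of 1 in 20 does not apply to HCN4. For GJA1, the fifth MYO library was at 508 CPM against 416 to 437 CPM in the other 4, and it still lay below every Control library. For GJA5, the fourth DOX library was at 18.9 CPM against 12.9 to 14.4 CPM in the other 4, which remained within the range of Control.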

How the results depend on the processing

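Of 44 fold changes, those of 6 genes in the 7 comparisons and of HCN4 in 2, the table names left 16 with the same direction and call and turned 22 in sign. The numbers of genes called became 4 for MYO, 4 for Hyper and 0 for RemoLV against Hyper. HCN4, set by the filter, is counted in MYO and in Hyper. Among the 22, signs turned for SCN2B (-0.80 for DOX, -1.52 for MYO, -2.74 for RemoLV and -0.66 for RemoLV against Hyper), HCN2 (-0.59, -0.82, -1.18 and -0.07 in the same comparisons), GJA5 (-2.41 in RemoLV), GJC1 (0.36 in RemoLV) and GJA1 (0.01 in DOX). In Hyper, SCN2B (-2.08, edgeR adjusted p = 0.0191) and HCN2 (-1.11, 0.000167) turned and became calls, and GJC1 turned with no call in DOX and MYO (0.22 each), in Hyper (0.30) and in RemoLV against Hyper (0.06). Library totals turned 17 of the 44, among them GJA1 (0.26) and GJA5 (0.10) in DOX and GJC1 in RemoLV (0.15), beside a shift of the median of all genes of up to 0.52, and gave 1 call for DOX and MYO against Hyper. TMM factors were 0.735, 0.965 and 0.696 in Control and 0.834 to 1.18 elsewhere.

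In DOX, 1 gene was called without the filter, with 10 counts in every library and with the replicate block, and 0 with only the groups compared. In MYO, 1 gene was called with DESeq2, its size factors, no filter, the replicate block and only the groups compared. Asking for 10 counts in every library removed SCN2B and HCN4 from the test and left 2 calls in RemoLV against Control and 2 against Hyper. Leaving out each library gave 0 to 3 calls for DOX, 0 to 3 for MYO, 4 to 4 for RemoLV against Control, 3 to 4 for RemoLV against Hyper and 0 to 1 for DOX and MYO against Hyper. The RemoLV counts of these refits include HCN4, whose call is set by the filter. With the replicate block SCN2B in DOX was at 1.69 (adjusted p = 0.0698) and HCN2 in MYO at 0.54 (adjusted p = 0.0518). Libraries with the same number by file label correlated from -0.246 to 0.242. Of 32 such pairs 4 were over 0.1, against 13 of 110 pairs with other numbers, so a pairing by number was not seen. Where no construction shows it, the cause of these changes was not tested. Depth limits SCN4B, SCN2B and HCN4.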
